A study of Mus musculus with 6 samples.

Results

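The genes described here are the TGF-beta, BMP and activin signalling genes of cultured mouse pancreatic fibroblasts. They were taken from a list of 54 genes chosen by name and role: 13 ligands, 2 genes of ligand processing or storage, 12 receptors, 8 SMADs, 10 antagonists, 5 modulators of SMAD activity and 4 ID genes, which are transcribed in response to BMP. Of the 54, 49 were among the 14831 genes listed in the count table, and all 49 passed the filter on low counts that left 14289 genes to be tested. The 5 members that the table used here does not list are the ligands Bmp2, Bmp7 and Gdf10, the TGF-beta storage protein gene Nrros and the BMP antagonist Nog, so no value is given for them.

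RNAseq was performed on poly-A RNA from immortalized pancreatic fibroblasts grown to confluence in calf serum, with 3 wells labelled WT and 3 wells labelled KO. The genotype given for the KO wells is Gli2-/-;Gli3-/-, and the strain of all 6 is given as mixed. Per the study's methods, fibroblast lines were grown out from the pancreas of adult mice with floxed Gli alleles, so the WT cells carry those alleles too, and after immortalization cells received a GFP adenovirus together with a dsRed lentivirus (WT) or with a Cre adenovirus (KO) and were sorted. Wells of 1 line are replicate cultures, so that the p-values measure the spread between wells and libraries, and a difference between the lines or between the viruses they received cannot be told apart from the effect of the deletion. Libraries held between 31728420 and 41035931 counts. GLI2 and GLI3 are the transcription factors that end the Hedgehog pathway, and both genes had more counts in the KO libraries: Gli2 had 27.1 ± 1.19 CPM (counts scaled to library size) in the WT libraries and 56.2 ± 1.96 in the KO libraries, and Gli3 had 12.5 ± 0.0441 and 40.8 ± 1.64 (SD, n = 3 each). Counts over whole genes cannot show the loss of a floxed exon, so these 2 genes do not check the deletion. The study reports its own check of the deletion in its fibroblast lines, by qPCR and western blot. It also reports that its Gli2/Gli3 KO lines did not respond to Hedgehog stimulation. The Hedgehog target genes Gli1 and Ptch1 were lower in the KO libraries, with log2 fold changes of -2.40 (SE, standard error, 0.31) and -1.53 (SE 0.04). Gli1 was low in both groups, at 40, 50 and 37 counts in WT and 4, 10 and 13 in KO. The study, by contrast, describes Gli1 as kept at a baseline level in its Gli2/Gli3 KO fibroblasts. Below, WT and KO are therefore only the labels of the libraries.

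Ligands of this superfamily are secreted dimers that bring together type I and type II receptor kinases. TGF-beta and activin receptors phosphorylate SMAD2 and SMAD3, BMP receptors phosphorylate SMAD1, SMAD5 and SMAD9, and both sets enter the nucleus with SMAD4. SMAD6 and SMAD7 are inhibitory, and secreted antagonists such as gremlin, chordin and follistatin bind ligands before they reach a receptor. In pancreatic fibroblasts TGF-beta is known as an inducer of the contractile, matrix-secreting myofibroblast state, and the ID genes are the best known immediate targets of BMP.

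In the fibroblasts labelled KO, the ID genes Id1, Id2 and Id4, the BMP receptor Bmpr1b, the BMP-type SMAD gene Smad9 and the ligands Gdf6 and Inhbb rose, as did the antagonist Lefty1. The ligands Bmp6 and Gdf15 and the antagonists Bambi, Fstl3 and Nbl1 fell. The members most abundant in WT per kilobase of exon (Grem1, Fstl1, Bmp4, Tgfbr2 and Bmp1) all lay under the 1.5-fold limit. A gene counted as changed when it passed both limits, an adjusted p under 0.05 and a fold change of at least 1.5 (0.585 on the log2 scale), where p came from the quasi-likelihood test of edgeR, adjusted by the Benjamini-Hochberg method over all genes tested. By that measure 13 of the 49 members changed (26.5%, against 17.7% of all genes tested), 8 of them higher in KO (16.3%, against 11.6%) and 5 lower (10.2%, against 6.10%). With the adjusted p alone 37 members passed (75.5%, against 58.7% of all genes), of which 24 lay under the fold limit. In 39 members the WT and KO libraries did not overlap (79.6%, against 64.2%). The members were chosen with earlier results of these data known, so the shares of members given here and below are descriptions only. The median log2 fold change over the 49 members was -0.03, against 0.00197 over all genes tested, and the median of its size was 0.302 against 0.219. Of the members that passed the adjusted p, Smad9 lay nearest the fold limit among those past it (0.81) and Chrd among those under it (-0.56).

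**Figure D1:**
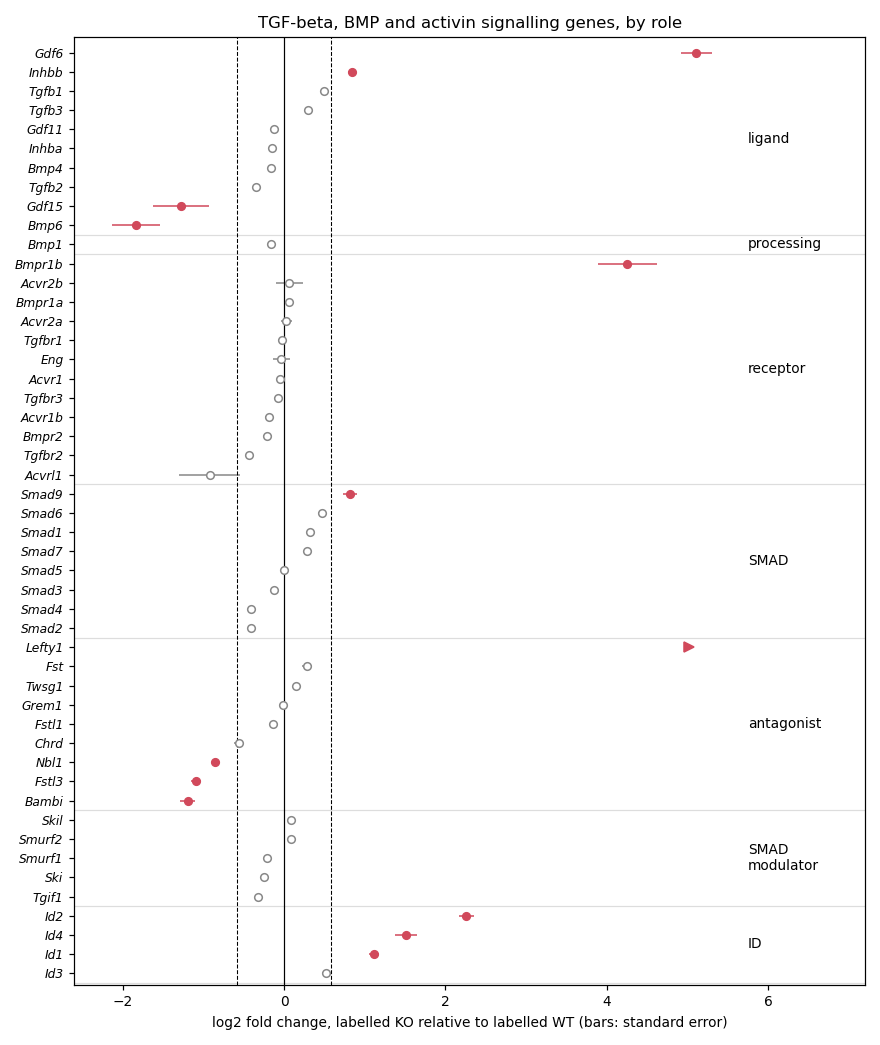
Log2 fold change (labelled KO relative to labelled WT, x axis) of the 49 listed members, grouped by role. Points are estimates from 3 against 3 libraries, bars are standard errors, filled red points passed both limits, dashed lines mark the 1.5-fold limit, and the triangle for Lefty1 is a lower bound (log2 at least 5.02) because all 3 WT libraries were at 0. The ligands and antagonists hold changed members on both sides, while the 4 ID genes all lie to the right.

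Among the ligands, all 10 that were listed passed the adjusted p (100%, against 58.7% of all genes tested). Of them 4 passed both limits (40.0%, against 17.7%), 2 in each direction. Gdf6, a BMP family ligand known for joint and skeletal patterning (chr4:9844372-9862345, positions on GRCm38.p6 throughout), had 5, 10 and 4 counts in the WT libraries and 239, 291 and 230 in the KO libraries. All 3 KO libraries lay well above the 3 WT libraries, which held only a few reads each, and the log2 fold change was 5.11 (SE 0.19, adjusted p = 2.2e-10). Inhbb, which encodes the beta B chain of activin B and inhibin B (chr1:119415465-119422248), had 16.2, 15.0 and 14.6 CPM in WT and 27.0, 28.2 and 26.7 in KO. Its groups did not overlap, and the log2 fold change was 0.84 (SE 0.05, adjusted p = 4e-08). Bmp6, a BMP ligand (chr13:38345107-38500302), had 26, 31 and 41 counts in WT and 7, 11 and 13 in KO. Every WT library was above every KO library, at 1.28 CPM or less, and the log2 fold change was -1.83 (SE 0.30, adjusted p = 0.00018). The exons of Bmp6 share 224 bases with Txndc5 on the opposite strand, a gene at 557 and 587 CPM, and whether the counting used strand is not given in the sources used here. Gdf15, a distant family member known as a stress-induced cytokine (chr8:70629393-70632456), had 17, 25 and 16 counts in WT and 7, 15 and 5 in KO. The groups did not overlap, though 1 KO library came close to the WT libraries, and the log2 fold change of -1.28 (SE 0.35, adjusted p = 0.0066) did not pass when the test was made against the 1.5-fold limit itself (edgeR's glmTreat, adjusted p = 0.0909).

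The other 6 ligands moved by less than the fold limit. Tgfb1 and Tgfb3 were higher in KO by 0.50 and 0.30 on the log2 scale, whereas Tgfb2 (-0.35), Bmp4 (-0.16), Inhba (-0.15), which encodes the activin A chain, and Gdf11 (-0.12) were lower. Per kilobase of exon, which allows genes to be set against each other, Bmp4 was the most abundant listed ligand in both groups (144 ± 1.72 CPM per kilobase in WT and 129 ± 3.21 in KO, SD, n = 3 each). It made up 63.6 to 63.8% of the summed ligand level in the WT libraries and 57.4 to 58.8% in the KO libraries. Tgfb3 came next, with 38.3 ± 0.380 and 47.2 ± 1.46 CPM per kilobase, and was 72.4 to 72.7% of the 3 TGF-beta ligand genes in WT and 76.4 to 77.3% in KO. The order of Tgfb1, Tgfb2 and Gdf11 behind them changed with the transcript length used. The shares depend on it too, as with the longest transcript Tgfb1 is 1.96 times as high, Tgfb2 1.13 times, and Tgfb3 is unchanged. Because Inhbb was higher and Inhba lower, the share of Inhbb in the summed level of the 2 activin chain genes was 15.9 to 17.4% in WT and 27.8 to 29.3% in KO, again without overlap. Bmp1, a protease that cleaves procollagen and the BMP antagonist chordin, was lower by a log2 fold change of -0.17 (452 ± 8.15 against 403 ± 3.23 CPM).

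**Figure D2:**
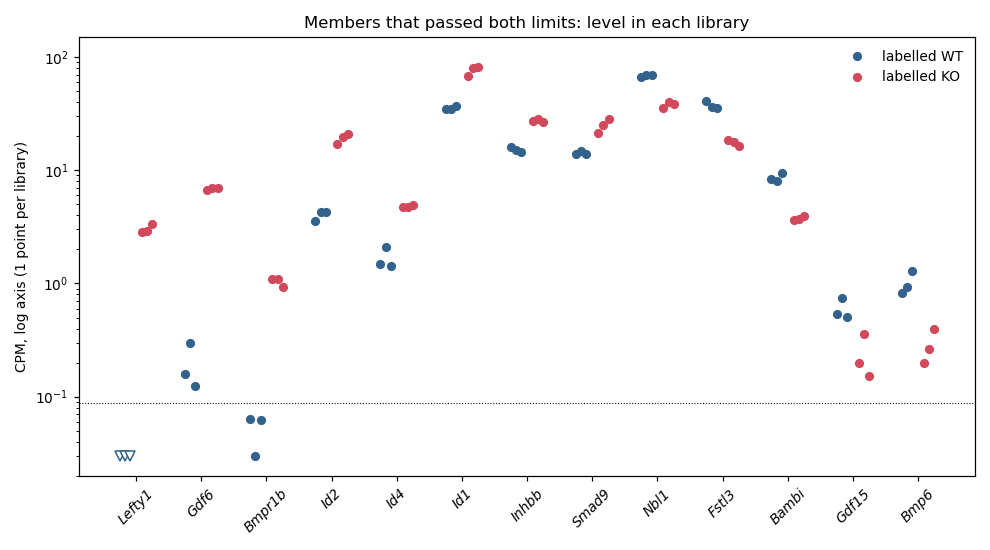
CPM in each library (1 point per library, log axis) of the 13 members that passed both limits, 3 WT libraries in blue and 3 KO libraries in red. The dotted line is about the level of 3 counts in a library, and open triangles mark the 3 WT libraries in which Lefty1 had 0 counts. The 2 groups do not overlap in any of the 13, and Gdf15 shows the narrowest gap.

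Of the 12 receptor genes, all listed, only Bmpr1b passed both limits (8.33%, against 17.7% of all genes tested). The adjusted p was passed by 4 (33.3%, against 58.7%) and not by the other 8. Bmpr1b encodes a BMP type I receptor (ALK6) best known in cartilage and the ovary (chr3:141837136-142169425). It had 2, 1 and 2 counts in the WT libraries and 39, 46 and 31 in the KO libraries. The 2 groups were far apart, with at most 2 reads in any WT library, and the ratio of the groups was 20.4 with an exact 95% interval of 8.49 to 64.0 from 5 counts against 116, an interval that covers counting error only. Its adjusted p was 5.6e-07. Even in KO its level of 0.176 ± 0.0158 CPM per kilobase was far below that of Bmpr1a, another BMP type I receptor gene, at 29.5 ± 0.547 in WT and 30.7 ± 0.640 in KO (SD, n = 3 each). Bmpr1a itself had a log2 fold change of 0.06 that did not pass the adjusted p. Tgfbr2, the TGF-beta type II receptor and the most abundant receptor of the list, had 479, 488 and 480 CPM in WT and 367, 351 and 354 in KO. Its groups did not overlap, but the log2 fold change of -0.43 (SE 0.03, adjusted p = 5.8e-08) is under the fold limit. Its share of the summed receptor level was 41.2 to 42.4% in WT and 34.6 to 36.3% in KO. The BMP type II receptor Bmpr2 and the activin type I receptor Acvr1b also passed the adjusted p alone, with log2 fold changes of -0.21 and -0.19. Tgfbr1, Acvr1, Acvr2a, Acvr2b and the co-receptors Tgfbr3 and Eng had log2 fold changes between -0.08 and 0.06. Acvrl1, the endothelial type I receptor ALK1, was at 0.434 ± 0.0918 CPM in WT and 0.232 ± 0.117 in KO (log2 fold change -0.92, adjusted p = 0.051), with overlapping groups, so that a difference could not be called at this depth.

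Of the 8 SMAD genes, 7 passed the adjusted p (87.5%, against 58.7% of all genes tested) and 1 passed both limits (12.5%, against 17.7%). Smad9, a SMAD of the BMP branch (chr3:54755582-54801257), was that gene, with 14.0, 14.9 and 14.0 CPM in the WT libraries and 21.5, 25.3 and 28.6 in the KO libraries. The KO libraries varied among themselves more than the WT libraries did, and each was above all 3 WT libraries (log2 fold change 0.81, SE 0.09, adjusted p = 5.4e-06). Smad1 was higher in KO by 0.32 and the inhibitory Smad6 and Smad7 by 0.47 and 0.28, all under the fold limit. Smad5, the most abundant SMAD of the BMP branch, had a log2 fold change of 0.00 that did not pass (154 ± 5.27 against 154 ± 4.17 CPM). The TGF-beta and activin branch SMADs Smad2 and Smad3 were lower by -0.41 and -0.12, and the shared Smad4 by -0.40, also under the limit. Put as a ratio of levels per kilobase, Smad1, Smad5 and Smad9 together came to 0.853 to 0.882 of Smad2 and Smad3 together in the WT libraries and to 1.10 to 1.14 in the KO libraries. This ratio is of RNA levels only, and its level depends on the length used. With the longest transcript Smad1 is 1.66 times as high, Smad5 1.13 times and Smad2 and Smad3 1.09 times, and Smad9 is unchanged. The same holds for the share of Smad9, which was 8.89 to 9.41% of the BMP-branch sum in WT and 12.3 to 16.1% in KO.

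**Figure D3:**
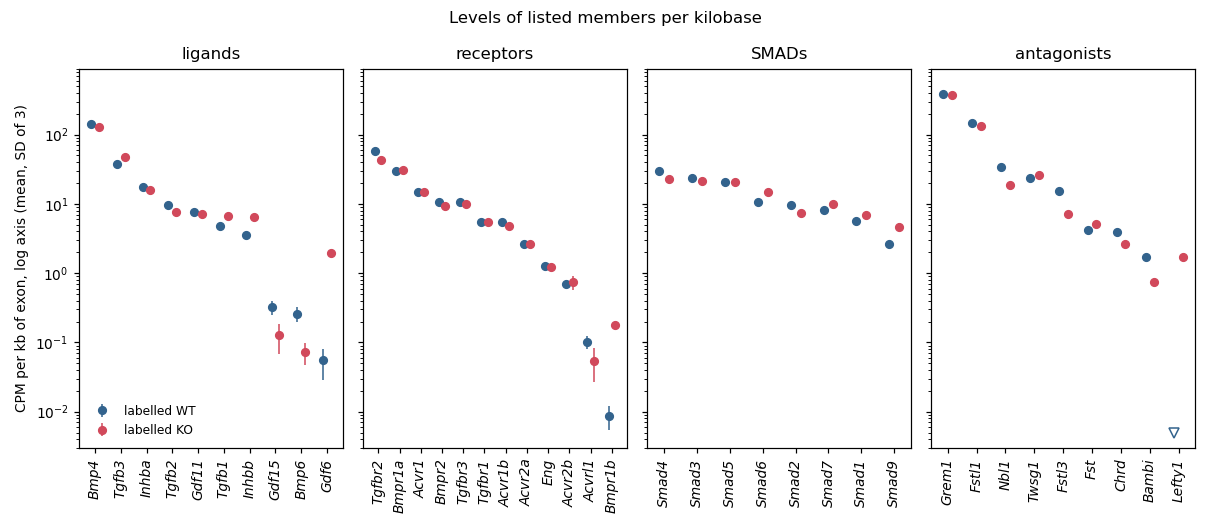
Mean level of each listed ligand, receptor, SMAD and antagonist in CPM per kilobase of exon (log axis), with SD over 3 libraries, labelled WT in blue and labelled KO in red. Members are ordered by their WT level and the open triangle marks Lefty1 at 0 in WT. Grem1 (382 and 379) stands above all others in both groups, and the large separations lie among the genes of low level.

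The antagonists held 4 changed genes among the 9 listed (44.4%, against 17.7% of all genes tested), 3 of them lower (33.3%, against 6.10%). Bambi, a decoy receptor that lacks the kinase domain, had 264, 270 and 300 counts in the WT libraries and 128, 155 and 131 in the KO libraries. The groups were well apart, at 8.63 ± 0.691 and 3.77 ± 0.182 CPM (log2 fold change -1.20, SE 0.09, adjusted p = 2.5e-07). Fstl3, a secreted protein that binds activin and related ligands (chr10:79777272-79782630), had 40.9, 36.2 and 35.7 CPM in WT and 18.5, 17.7 and 16.5 in KO. All 3 KO values were below all WT values (log2 fold change -1.10, SE 0.06, adjusted p = 1.2e-08). Of its 2445 exon bases, 1157 lie opposite Prss57, a gene that the table used here does not list. How reads from the shared bases were counted is not known. Nbl1 (also called DAN), a secreted BMP antagonist (chr4:139082284-139092993), had 66.8, 69.8 and 69.9 CPM in WT and 35.9, 39.8 and 38.6 in KO. Its values were again without overlap (log2 fold change -0.85, SE 0.04, adjusted p = 4.3e-09). Lefty1, an antagonist of Nodal (chr1:180935022-180938400), had 0 counts in every WT library and 100, 122 and 110 counts in the KO libraries. Against a floor of 3 counts per library it was at least 32.5-fold higher in KO, with an adjusted p of 3e-08. Lefty1 has a near-identical neighbour, Lefty2, which the table used here does not list, so that reads shared by the pair cannot be assigned with certainty.

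The most abundant antagonist, Grem1, which binds BMP2, BMP4 and BMP7, was at 1583, 1601 and 1574 CPM in WT and 1526, 1624 and 1571 in KO. The groups overlapped and the log2 fold change of -0.01 (SE 0.03, adjusted p = 0.76) did not pass. Per kilobase it exceeded the Bmp4 level 2.61 to 2.69 times in WT and 2.89 to 2.98 times in KO. Chordin (Chrd, -0.56) and the follistatin-like Fstl1 (-0.14) were lower and follistatin (Fst, 0.28) and Twsg1 (0.14), a modulator of chordin, were higher, all past the adjusted p and under the fold limit. Fst and Fstl3 both bind activin, and their levels went in different directions. Their sum relative to that of the activin chain genes Inhba and Inhbb, per kilobase, was 0.869 to 0.951 in the WT libraries and 0.539 to 0.556 in the KO libraries. The level of this ratio depends on the length used. With the longest transcript the levels of Fst and Fstl3 are 1.57 and 1.25 times as high, and those of Inhba and Inhbb are unchanged. Fstl3, the larger part of the sum, also carries the overlap with Prss57 given above.

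None of the 5 SMAD modulators passed both limits (against 17.7% of all genes tested). The ubiquitin ligase gene Smurf1 (-0.21) and the corepressor genes Ski (-0.25) and Tgif1 (-0.32) were lower in KO past the adjusted p. Smurf2 and Skil both had a log2 fold change of 0.08 and did not pass (adjusted p = 0.054 and 0.068).

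The ID genes encode inhibitors that bind bHLH transcription factors and keep them from DNA. All 4 were higher in the KO libraries past the adjusted p (100%, against 58.7% of all genes tested in either direction). Id1, Id2 and Id4 also passed the fold limit (75.0%, against 11.6% of all genes higher past both limits). Id2 (chr12:25093799-25097140) had 3.54, 4.24 and 4.32 CPM in WT and 17.2, 19.9 and 21.0 in KO, so that the lowest KO library stood far above the highest WT library. Its log2 fold change was 2.26 (SE 0.10, adjusted p = 9.7e-10). Id4 (chr13:48261228-48266026) had 47, 70 and 46 counts in WT and 167, 197 and 164 in KO, a log2 fold change of 1.51 (SE 0.14, adjusted p = 1.2e-06). Its exons share 171 bases with Gm49291, a gene on the opposite strand that the table used here does not list. Id1 (chr2:152736251-152737410) had 34.7, 34.5 and 37.3 CPM in WT and 68.7, 80.1 and 81.4 in KO. The 3 WT libraries of Id1 lay close together, the KO libraries spread more, and the log2 fold change was 1.11 (SE 0.06, adjusted p = 9.4e-09). Id3 had 70.9, 78.9 and 76.4 CPM in WT and 100.1, 112 and 112 in KO, without overlap, but its log2 fold change of 0.52 (SE 0.05, adjusted p = 1.7e-06) is under the fold limit. Per kilobase, the summed ID level was 71.4 to 76.9 in the WT libraries and 123 to 142 in the KO libraries. Id3 and Id1 made up most of it in both groups, and their order in KO turned with the transcript length used.

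Promoter sequence is shown for the BMP-responsive members that were higher in KO, because all 4 ID genes lay on the same side. RefSeq windows on GRCm38.p6, from 250 bases before to 50 bases after the start RefSeq gives, were found for 36 of the 49 members. Id1, Gdf6, Lefty1 and Smad7 are among the 13 without one. The windows were searched on both strands for a GC-rich SMAD site (GGCGCC), a SMAD palindrome (GTCTAGAC) and the core of the GLI site (GGGTGGTC). Capitals mark a match. The RefSeq start is that of the GENCODE annotation used for gene positions in Smad6 and Smad9, but it lies 1048 bases inside the annotated gene in Id2, 325 inside it in Id3 and 112 before it in Id4, so other starts of these genes were not searched. The windows below are Smad6 (chr9:64022010-64022309, minus strand), Smad9 (chr3:54755332-54755631, plus), Id2 (chr12:25096043-25096342, minus), Id3 (chr4:136143572-136143871, plus) and Id4 (chr13:48260866-48261165, plus), each written 5′ to 3′ along the gene.
Smad6: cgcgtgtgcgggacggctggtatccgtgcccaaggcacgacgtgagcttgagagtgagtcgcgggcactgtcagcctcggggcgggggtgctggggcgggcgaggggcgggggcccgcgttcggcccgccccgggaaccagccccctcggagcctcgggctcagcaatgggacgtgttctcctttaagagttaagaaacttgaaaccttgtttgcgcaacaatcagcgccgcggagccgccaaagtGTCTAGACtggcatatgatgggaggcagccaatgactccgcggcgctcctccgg
Smad9: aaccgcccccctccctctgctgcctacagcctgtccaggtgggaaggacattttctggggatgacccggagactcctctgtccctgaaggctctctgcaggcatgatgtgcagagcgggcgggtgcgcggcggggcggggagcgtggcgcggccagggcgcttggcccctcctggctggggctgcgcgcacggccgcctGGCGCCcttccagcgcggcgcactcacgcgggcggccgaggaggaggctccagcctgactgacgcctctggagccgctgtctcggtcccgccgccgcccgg
Id2: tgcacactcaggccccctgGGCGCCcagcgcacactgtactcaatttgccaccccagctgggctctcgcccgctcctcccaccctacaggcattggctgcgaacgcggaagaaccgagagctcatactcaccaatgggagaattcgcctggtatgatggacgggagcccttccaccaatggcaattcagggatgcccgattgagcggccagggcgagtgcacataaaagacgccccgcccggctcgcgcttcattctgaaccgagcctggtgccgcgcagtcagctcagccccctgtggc
Id3: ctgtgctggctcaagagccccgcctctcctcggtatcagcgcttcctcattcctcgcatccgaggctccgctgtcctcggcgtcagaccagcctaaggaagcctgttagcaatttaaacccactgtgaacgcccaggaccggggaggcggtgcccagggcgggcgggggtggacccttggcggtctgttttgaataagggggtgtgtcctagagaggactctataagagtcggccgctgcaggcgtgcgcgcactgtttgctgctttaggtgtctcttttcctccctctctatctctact
Id4: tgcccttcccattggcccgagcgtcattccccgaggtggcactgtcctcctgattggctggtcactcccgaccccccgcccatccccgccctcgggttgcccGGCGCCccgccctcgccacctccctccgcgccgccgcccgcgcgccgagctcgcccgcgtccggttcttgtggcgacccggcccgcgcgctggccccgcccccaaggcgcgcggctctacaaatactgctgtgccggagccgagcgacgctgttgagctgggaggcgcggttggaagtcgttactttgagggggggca

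The GC-rich letters begin 51 bases before the start in Smad9, 231 before it in Id2 and 148 before it in Id4, and the palindrome begins 4 bases before the start in Smad6. The Id3 window holds none of the 3 motifs. GGCGCC was found in 13 of the 36 member windows (36.1%), against 24.6% of the 9996 tested genes with a window. The member windows were also richer in G and C, with a median of 66.8% against 60.7%. Its 13 members include Grem1, Smad5 and Tgfbr1, which did not pass the adjusted p, and Nbl1, which fell. GTCTAGAC was found in Smad6 alone among the members (0.310% of tested genes). GGGTGGTC was found in 0 of the 36, against 1.13% of tested genes. A match is a run of letters and not a measured binding site.

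Other genes of the pathway were read from a list of 127 that are not members, of which 91 were listed and tested. Of these, 32 passed both limits (35.2%, against 17.7% of all genes tested), 21 higher (23.1%, against 11.6%) and 11 lower in KO (12.1%, against 6.10%). The lists were chosen with earlier results of these data known, so these shares and those of each list below are descriptions only. Among 16 tested genes that respond to BMP, which include 8 of the members above, 7 were higher (43.8%, against 11.6% of all genes) and only Bambi lower past both limits, with a median log2 fold change of 0.56. Without the members, 3 of 8 were higher (37.5%, against 11.6% of all genes) and 0 lower (against 6.10%). Among the 3 was Gata2, a transcription factor gene (log2 fold change 1.29, SE 0.07, adjusted p = 1e-08). With the adjusted p alone 6 of those 8 passed, all higher (75.0%, against 58.7% of all genes in either direction).

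Genes that respond to TGF-beta went both ways. Of 29 tested, 9 were higher (31.0%, against 11.6% of all genes) and 3 lower (10.3%, against 6.10%) past both limits, and the median log2 fold change was 0.13. Itga11, a collagen receptor chain, rose from 18.2 ± 0.789 to 226 ± 3.19 CPM, and Tgfbi, a matrix protein gene named for its induction by TGF-beta, from 23.7 ± 1.06 to 123 ± 13.3 (SD, n = 3 each). The matricellular gene Ccn1 rose by a log2 fold change of 1.31. By contrast Col3a1 (-0.94), the transglutaminase gene Tgm2 (-1.29) and Ltbp2 (-1.45) fell. The smooth muscle actin gene Acta2, used as a marker of myofibroblasts, was at 1893 ± 80.0 CPM in WT and 1903 ± 42.2 in KO. Col1a1, Tagln and Acta2 all had log2 fold changes between -0.03 and 0.01 that did not pass. Not all such genes stayed level: Cnn1 passed both limits as higher (log2 fold change 0.72, SE 0.11, adjusted p = 0.00011). Col1a2 was lower by -0.19, past the adjusted p and under the fold limit.

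**Figure D4:**
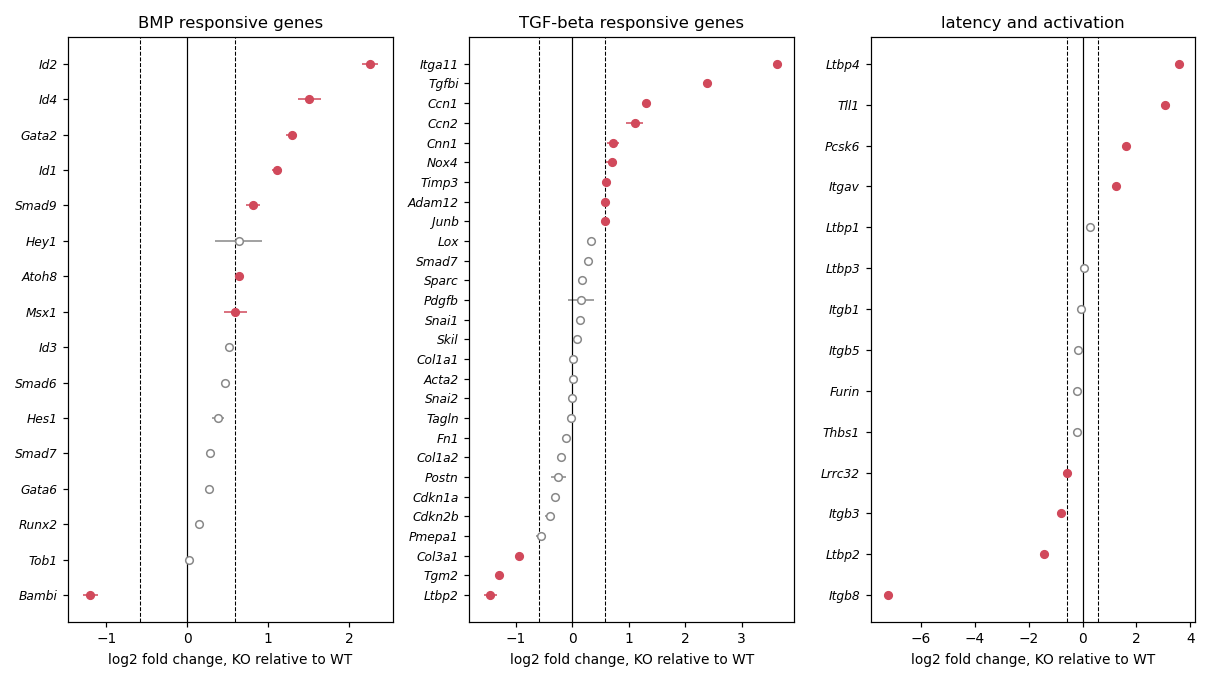
Log2 fold change (labelled KO relative to labelled WT) of tested genes in 3 pathway lists, members included, with standard errors from 3 against 3 libraries. Filled red points passed both limits and dashed lines mark the 1.5-fold limit, and not every gene counted in the text is drawn. In the BMP list 7 of 16 genes passed to the right and Bambi alone to the left, while the other 2 lists hold changed genes on both sides.

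Of 14 tested genes listed under storage or activation of latent TGF-beta, 8 passed both limits (57.1%, against 17.7% of all genes tested), 4 in each direction, and the list's median log2 fold change was -0.11. Itgb8, an integrin chain that activates latent TGF-beta, was at 42.4 ± 2.31 CPM in WT and 0.279 ± 0.0722 in KO, a log2 fold change of -7.21 (SE 0.11, adjusted p = 7.8e-14). Itgav, which encodes the alpha chain that pairs with it, was higher by 1.25, while Itgb3 was lower (-0.80). Ltbp4, a latent TGF-beta binding protein of the matrix, went from 30.9 ± 0.547 to 374 ± 8.15 CPM (log2 fold change 3.60, SE 0.03, adjusted p = 3.1e-15). Its relative Ltbp2, which is counted both in this list and among the genes that respond to TGF-beta, went the other way. The more abundant Ltbp1 and Ltbp3 had log2 fold changes of 0.28 and 0.04. The protease genes Pcsk6 and Tll1, the second a relative of Bmp1, rose by 1.59 and 3.07. Among 10 other antagonists, Crim1 (0.78) and Htra1 (0.62) were higher and Bmper (-1.48), which encodes a BMP-binding protein of endothelial cells, was lower. Of 29 other SMAD modulators 3 changed (10.3%, against 17.7% of all genes tested). Tgif2 rose by 0.87, and the ubiquitin ligase gene Nedd4l (-1.54) and the SMAD-binding Ldlrad4 (-0.73) fell. Of 2 other co-receptors Rgmb (-0.62) fell, and of 3 other ligands Amh (0.70) was higher and Gdf9 (-0.85) lower, both at under 3 CPM.

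Markers of other cell types were read beside these results. All 4 mesothelial markers (Msln, Upk3b, Wt1 and Lrrn4) were higher in KO, their summed level being 21.5 to 24.4 CPM in the WT libraries and 267.0 to 267.4 in the KO libraries, and Msln, the main one, had a log2 fold change of 6.12. Of 8 epithelial markers 3 were listed, at 4.29 to 5.23 CPM summed in WT and 23.9 to 24.4 in KO, and Epcam, Krt18 and Krt19 were not among them. Krt7 made up most of that sum (mean 4.38 CPM in WT and 23.1 in KO). Cdh1 was at 0.340 and 0.719, and Krt8 at 0.0315 and 0.259. Of 7 endothelial markers only Vwf was listed, at 0.866 to 1.60 CPM in WT and 0.763 to 0.939 in KO. Of 7 macrophage or leukocyte markers 4 were listed, at 42.4 to 48.2 CPM summed in WT and 39.7 to 40.98 in KO, without Ptprc and Adgre1. Lyz2 made up most of that sum (mean 41.1 CPM in WT and 36.6 in KO). Cd74 alone of the 4 passed both limits, as lower (log2 fold change -1.46). Cela1 alone of 6 acinar markers was listed, at 7.36 to 8.84 CPM in WT and 13.6 to 15.4 in KO. Of 11 fibroblast markers 9 were listed, with a summed level of 44820 to 47230 CPM in WT and 36790 to 38550 in KO. Of the 8 tested, 4 passed both limits as lower, among them Dcn and Pdgfra, and 1 as higher. The mesothelial markers and the few listed epithelial ones, mainly Krt7, move with the same labels as the members do. Their part in the changes of Gdf6, Lefty1, Bmpr1b and the ID genes was not tested. In bulk RNA a change in the number of cells of a type and a change in RNA per cell cannot be told apart.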

How the data were processed

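Fibroblasts from 3 wells labelled WT and 3 labelled KO were profiled by poly-A RNAseq. The submitters' processing notes name STAR 2.7.2b, featureCounts, limma and GRCm38.p6. The authors deposited raw counts per gene, which were the values tested, and log2 CPM values from limma, which were deposited by the authors beside them and used only in an alternative. The strand setting is not given in the sources used here.

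Counts were scaled by TMM, filtered with filterByExpr and tested with edgeR 4.0.16 (glmQLFit and glmQLFTest), with Benjamini-Hochberg adjustment over all 14289 genes tested. CPM use TMM-scaled library sizes, and levels per kilobase divide CPM by the union of annotated exons. Totals were 31728420 to 33905521 (WT) and 32781730 to 41035931 (KO) counts, and 3 counts in a library were taken as its floor (0.0720 to 0.0957 CPM). No 2 libraries agreed within sampling noise. On simulated counts for 14111 genes of this comparison, 98% of 100 genes changed by a log2 fold of 1 and 99% of 100 changed by 2 were recovered, with 2 false calls. The changed genes were drawn only from those above a minimum mean count, so these rates do not cover the members with the fewest counts.

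The members and lists were chosen with earlier results of these data known. Each member is accounted for, each changed member is described by library, and up to 3 genes per direction and pathway list are named, those that changed most and whose higher group had 100 or more counts per library. Itgav, Amh, Gdf9, Ltbp1, Ltbp3, Acta2, Tagln, Col1a1, Cnn1 and Col1a2 were named after their values were seen. Some genes of the lists are counted but not reported here by name. Alternatives were other scalings (RLE, upper quartile, total counts), other filters, DESeq2 1.42.0, limma 3.58.1, glmTreat, other fold limits and leaving out each library.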

Additional observations from a re-analysis of the deposited data

How the results depend on the processing

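Of 190 pairs of a changed member and another setting, 189 kept the direction and the call, 1 lost the call (Gdf15 under glmTreat, adjusted p = 0.0909) and 0 reversed. With at least 10 counts required in every library, 5 members were higher and 3 lower in KO, because Lefty1, Gdf6, Bmpr1b, Bmp6 and Gdf15 were no longer tested. Without a fold limit 16 members were higher and 21 lower, and 38 and 30 of the other pathway genes, where 8391 of all genes passed in place of 2531. Of the other pathway genes 12 were higher under glmTreat, and 10 were higher and 5 lower at a 2-fold limit. Leaving out each library in turn gave 8 members higher each time and 5 to 6 lower, and 17 to 21 other pathway genes higher and 10 to 13 lower. With the longest transcript in place of the union of exons, the rank within a role changed for 6 of 49 members in WT and 10 in KO, and levels per kilobase rose by up to 1.96 times. Shares and ratios of levels per kilobase therefore depend on the length used. Depth limits Bmpr1b, Lefty1, Gdf15, Bmp6 and Acvrl1, which had few counts in a group. No paired analysis was possible because the labels give the groups no shared replicate numbers.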
